A study of Homo sapiens with 12 samples.

Results

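Transcripts of 51 translation factor genes were examined among the 19923 genes counted in each library. The members were all gene names that begin with EIF1, EIF3, EIF4, EIF5, EIF6, EEF1 or EEF2, leaving out names that contain KMT. By their names they comprised 36 initiation factors, 6 elongation factors, 3 EIF4E-binding proteins (EIF4EBP1, EIF4EBP2 and EIF4EBP3) and 6 genes for associated proteins that carry a factor's name (EEF1AKNMT, EEF1E1, EEF1E1-BLOC1S5, EEF2K, EIF1AD and EIF4ENIF1). Messenger RNA was sequenced from NGP and SK-N-BE2 cells, which are established lines of human neuroblastoma with MYCN amplification, both labelled wild type. Cultures were treated for 6 days with DMSO, the vehicle, or with STM2457, a small-molecule inhibitor of the m6A methyltransferase METTL3. The concentration was 12 µM in SK-N-BE2 and 1 µM in NGP, and the file headers name a different sequencing run for each line, so effects of the line, the dose and the run cannot be told apart. Each of the 4 groups held 3 replicates, and the labels do not say whether these were separate cultures, so p-values measure the spread between these samples, which may be technical. The lines are cultured tumour cells, and all values are RNA levels in bulk samples, in which fewer cells of a type and less RNA per cell cannot be told apart.

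Translation of most mRNAs begins when eIF4E binds the 5′ cap and joins the scaffold eIF4G and the helicase eIF4A in the eIF4F complex. The EIF4E-binding proteins compete with eIF4G for eIF4E, and mTOR releases eIF4E by phosphorylating them. eIF3 and eIF1 act on the small ribosomal subunit during recruitment and start-codon selection, after which eEF1A delivers aminoacyl-tRNA and eEF2 moves the ribosome along the mRNA. Many mRNAs of the translation machinery start with a 5′ terminal oligopyrimidine (TOP) tract, a C at the cap followed by a run of pyrimidines, through which mTOR controls their translation.

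RefSeq start sites (GRCh38.p14) were found for 42 of the 51 members, and the region from 250 bases before to 50 bases after each start was searched. No start site was found for EIF3A, EIF3CL, EIF3E, EIF3G, EIF3H, EIF3L, EEF1A2, EEF1D and EIF4EBP1, which were not searched. A C followed by at least 4 pyrimidines (C or T, on the strand of the gene) stood exactly at the annotated start in 8 members (19.0%), against 4.65% of 15085 promoters in the same table. Those 8 are printed here because they include 2 of the main elongation factors and 4 EIF3 subunits. Each runs 5′ to 3′ from 5 bases before the start to 20 bases from it on, on the gene's own strand, with the C and its pyrimidine run in capitals.
EIF3D, chr22:36529147-36529171, minus strand: gtttcCTCTTTTCCTggtttctcaa
EIF3F, chr11:7987332-7987356, plus strand: gcctcCTTCTTTCTCgacaagatgg
EIF3K, chr19:38619183-38619207, plus strand: accacCTCTTCCTgttcccgtcctt
EIF3M, chr11:32583826-32583850, plus strand: gttccCTTTTCCggtcggcgtggtc
EIF4A2, chr3:186783572-186783596, plus strand: gctgtCTTTTCagtcgggcgctgag
EIF4B, chr12:53006451-53006475, plus strand: cgggtCTTTTgcgttctctttccct
EEF1A1, chr6:73521013-73521037, minus strand: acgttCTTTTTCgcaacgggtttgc
EEF2, chr19:3985444-3985468, minus strand: gcgttCTCTTCCgccgtcgtcgccg
With starts allowed within 5 bases on either side, 18 members (42.9%) and 22.2% of all promoters held such a run. These are matches of letters, and use of the start sites was not measured.

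The E-box CACGTG, the sequence bound by MYC and MYCN with MAX, was searched on both strands of the same regions, where it reads alike. It occurred in 11 members (26.2%) and in 8.89% of all promoters. Matches in genes of the eIF4F complex and in its cofactor EIF4B are printed with 10 bases on each side and the E-box in capitals, since both lines carry amplified MYCN. The EIF4E and EIF4G1 regions each held 2 matches, of which the one farther upstream is shown.
EIF4E, chr4:98929343-98929368, minus strand: acccatcggcCACGTGaccagtcctt
EIF4G1, chr3:184314452-184314477, plus strand: ctgtggctgtCACGTGacggggcggg
EIF4B, chr12:53006424-53006449, plus strand: ccgctataatCACGTGattgcctcat
The composite element TGATGNAA, searched on both strands, was found in 0 of the 42 member regions and in 2.53% of all promoters. No match says only that these letters are not in the window searched.

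Libraries held 47242379 to 58159937 counted reads, and in each line the totals with STM2457 and with DMSO overlapped. METTL3, the target of the compound, was higher with STM2457 in both lines, at 54.0 ± 3.26 against 79.5 ± 1.43 CPM (counts scaled to the library total and TMM factors; SD, n = 3) in SK-N-BE2 and at 40.4 ± 3.59 against 77.7 ± 2.46 in NGP. Its enzyme activity was not measured. Markers of neuroblastoma (7 genes) summed to 5406 to 6505 CPM over all libraries, with MYCN among them. In each group 6 of the 7 had a mean above 1 CPM. A list of 4 stromal markers was also detected and moved with treatment, from 105 to 120.2 CPM with DMSO to 191 to 205 with STM2457 in SK-N-BE2, and from 56.7 to 69.7 to 275 to 309 in NGP. Its part in the results was not tested. The lists for blood (4 genes) and epithelium (3 genes) summed to at most 2.17 and 4.91 CPM. A single library, NGP DMSO replicate 1, stood apart, with a median absolute deviation from its group of 0.231 on the log2 scale against 0.0557 to 0.164 in the other libraries. In this library the tenth of genes with the highest GC content lay 0.48 (median, log2 scale) above the mean of all NGP libraries. That mean includes the treated libraries. Where leaving out NGP DMSO replicate 1 changes the call of a member, the value without it is given beside the result.

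Of the 51 members, 48 had enough reads for a test in SK-N-BE2 and 47 in NGP. With STM2457 in SK-N-BE2, 29 members changed at an adjusted p under 0.05 (edgeR quasi-likelihood test, the source of every adjusted p given here unless DESeq2 is named), 8 higher and 21 lower, in a comparison where 54.7% of the 14013 genes tested were called (26.9% higher and 27.8% lower). The median log2 fold change was -0.18 over the members and -0.02 over all genes tested. In NGP 24 members changed, 8 higher and 16 lower, against 41.7% of the 13610 genes tested (19.4% higher and 22.2% lower), with medians of -0.11 and -0.03. In both lines, the total of called members therefore lay near the background for all genes, while lower calls outnumbered higher calls among the members and were nearly even among all genes. The lean towards lower calls in NGP was smaller without DMSO replicate 1, where 31 members were called, 13 higher and 18 lower, against 27.6% higher and 29.7% lower over all genes tested. The NGP count was 13 without STM2457 replicate 1 or replicate 3. Calls among all genes tested in NGP varied too, from 3816 to 7897 over all alternatives. Log2 fold changes of the members spanned -1.58 to 0.84 (SK-N-BE2) and -1.57 to 0.68 (NGP). EIF1AY, on the Y chromosome, is counted among the members and its level is not given.

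**Figure D1:**
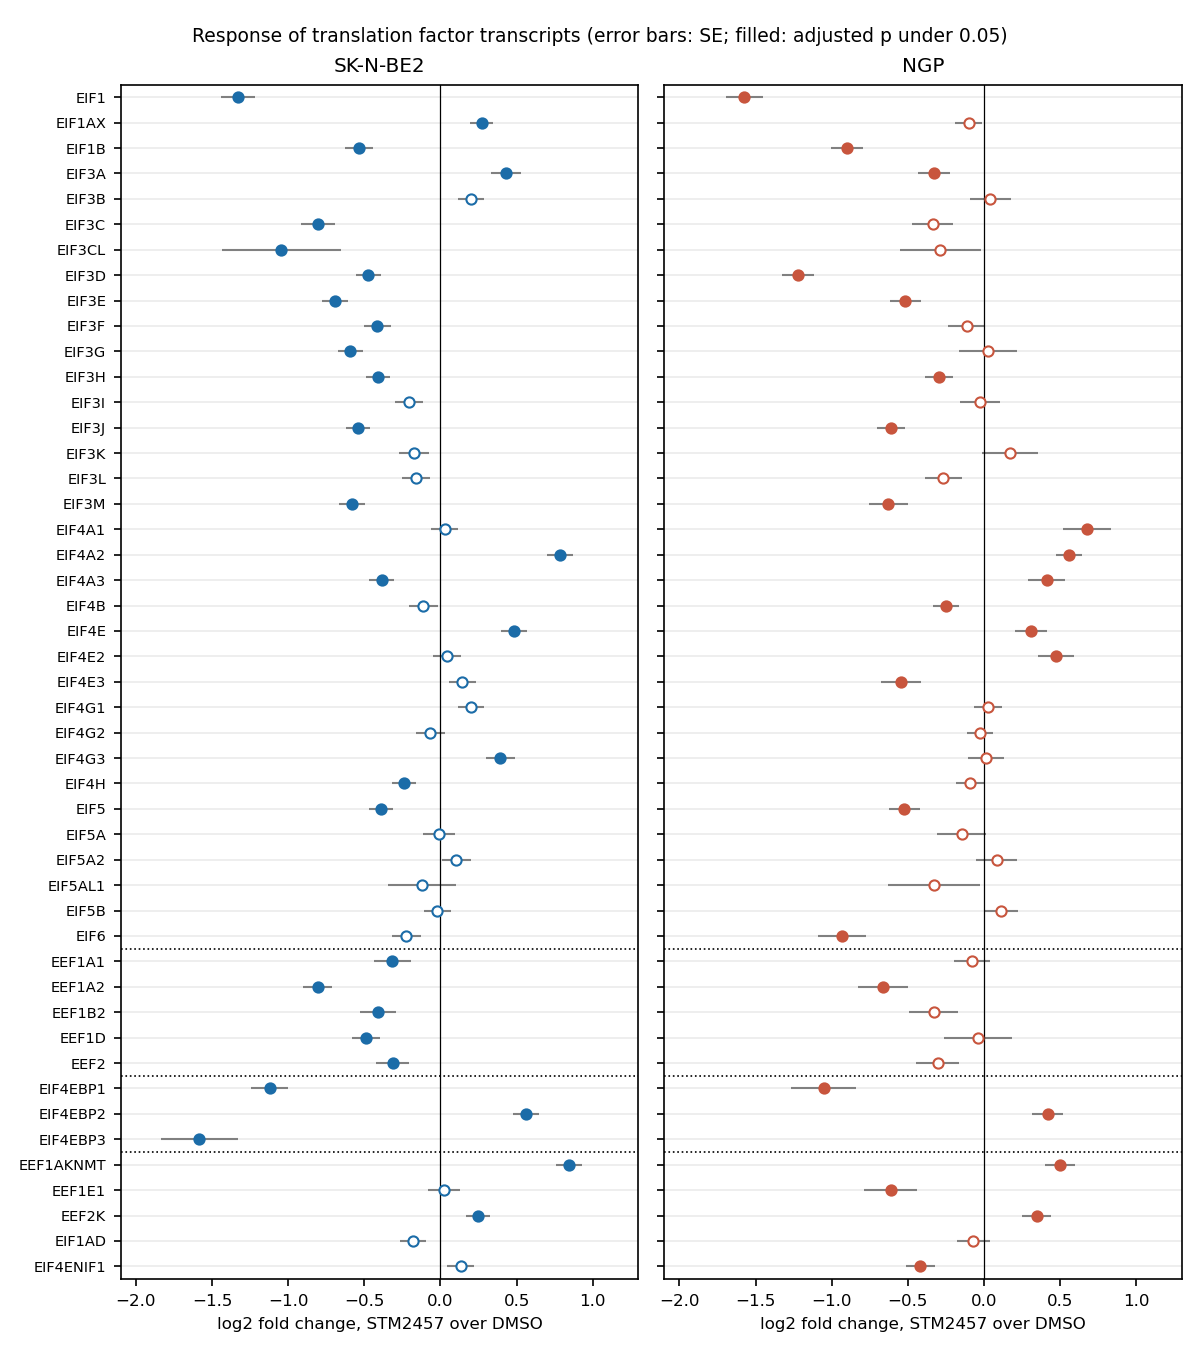
Log2 fold change of each tested member, STM2457 over DMSO (horizontal axis), in SK-N-BE2 on the left and NGP on the right, with the standard error as the bar and filled points for members called by edgeR. Dotted lines separate initiation factors, elongation factors, EIF4E-binding proteins and associated proteins. EIF1 lies at -1.33 and -1.57 and EIF4EBP1 at -1.12 and -1.05, while EIF4A2 lies at 0.78 and 0.56. EIF1AY is left out.

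The members called in both lines agreed in direction in all but a pair. Of the 47 members tested in both, 5 rose in both lines (EIF4A2, EIF4E, EIF4EBP2, EEF1AKNMT and EEF2K) and 10 fell in both (EIF1, EIF1B, EIF3D, EIF3E, EIF3H, EIF3J, EIF3M, EIF5, EEF1A2 and EIF4EBP1). EIF3A rose in SK-N-BE2 and fell in NGP, and EIF4A3 did the reverse. Among all 12952 genes tested in both lines, 2763 (21.3%) were called with the same direction and 643 (4.96%) with opposite directions. A further 11 members were called in SK-N-BE2 alone and 7 in NGP alone, which does not show that the lines differ for them.

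The EIF4E-binding proteins moved in opposite directions. EIF4EBP1 (chr8:38030534-38060365, plus strand), the best studied of the 3, measured 234, 312 and 334 CPM in the DMSO libraries of SK-N-BE2 and 149.9, 130.2 and 136 CPM in the STM2457 libraries. In NGP it measured 466, 265 and 301 CPM with DMSO and 156, 201 and 149 CPM with STM2457. All treated libraries lay below all controls in each line, and the highest control of NGP was the library that stood apart. The log2 fold change of EIF4EBP1 was -1.12 ± 0.12 SE in SK-N-BE2, with an adjusted p of 5.09e-06, and -1.05 ± 0.21 SE in NGP, with an adjusted p of 0.00471, which is 2.17-fold and 2.08-fold lower. Without NGP DMSO replicate 1 the log2 fold change in NGP was -0.775 (adjusted p 0.000399). The transcript is rich in G and C (61.7% of exon bases, against a median of 48.4% over genes tested). With offsets that remove each library's trend with GC content, a setting chosen after seeing the data, its log2 fold change was -0.98 in SK-N-BE2 and -0.80 in NGP.

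EIF4EBP2 (chr10:70404145-70428618, plus strand), which shares the EIF4E-binding motif, rose in both lines. Its level in SK-N-BE2 was 149, 150.4 and 138 CPM with DMSO and 228, 234 and 199.9 CPM with STM2457. The NGP libraries held 199, 236 and 233 CPM with DMSO and 304, 287 and 317 CPM with STM2457. The groups did not overlap in either line. In SK-N-BE2 the log2 fold change was 0.56 ± 0.09 SE (adjusted p 0.000111), and in NGP it was 0.42 ± 0.10 SE (adjusted p 0.0120). Leaving out either STM2457 replicate 1 (adjusted p 0.0567) or replicate 3 (0.0645) ended the call in NGP.

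EIF4EBP3 (chr5:140547662-140549576, plus strand) was the least abundant of the 3. It measured 2.62, 3.18 and 2.94 CPM in the SK-N-BE2 controls and 0.979, 1.29 and 0.723 CPM in the treated libraries, a fall of 1.58 on the log2 scale (SE 0.25, adjusted p 0.000146). In NGP it had 30 reads over the DMSO libraries and 11 over the STM2457 libraries and was not tested. Without NGP DMSO replicate 1 it passed the filter and was called lower there (-1.88, adjusted p 0.0300). In the files' annotation 73.2% of its exon length is shared with the read-through gene ANKHD1-EIF4EBP3, and reads in shared exons are not assigned, so its level is understated and its call uncertain.

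EIF4E (chr4:98871684-98930637, minus strand), the cap-binding protein that these proteins hold, rose in both lines. In SK-N-BE2 it measured 67.8, 70.6 and 58.7 CPM with DMSO and 93.2, 95.7 and 94.1 CPM with STM2457 (log2 fold change 0.48 ± 0.09 SE, adjusted p 0.000389). In NGP the values were 69.6, 70.8 and 81.0 CPM with DMSO and 91.4, 87.6 and 100.1 CPM with STM2457 (0.31 ± 0.10 SE, adjusted p 0.0445). Treated and control libraries did not overlap, with the margin in NGP smaller than in SK-N-BE2. The NGP call was lost on leaving out DMSO replicate 2 (adjusted p 0.103) or STM2457 replicate 1 (0.127), 2 (0.0543) or 3 (0.193). It was also lost with no filter beyond 1 read (0.0580), with the replicate block (0.0751) and with offsets for exon length (0.157).

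Within each library, the summed reads per kb of exon of EIF4EBP1, EIF4EBP2 and EIF4EBP3 were divided by those of EIF4E, a ratio that does not depend on scaling between libraries. In SK-N-BE2 the ratio was 60.1, 75.6 and 96.3 with DMSO and 30.5, 26.6 and 27.2 with STM2457, or 77.3 ± 18.2 against 28.1 ± 2.12 (SD, n = 3, two-sided exact permutation p 0.1). The NGP libraries gave 112, 66.1 and 64.9 with DMSO and 33.6, 42.8 and 29.7 with STM2457, or 81.1 ± 27.0 against 35.4 ± 6.71 (exact permutation p 0.1). In both lines every treated library lay below every control, and 0.1 is the smallest p that 3 against 3 samples allow. The difference of means in NGP was -45.7, and -30.1 without DMSO replicate 1. EIF4EBP1 supplied 93.2% ± 1.3 of the binding proteins' reads per kb with DMSO in SK-N-BE2 and 83.6% ± 1.62 with STM2457. In NGP its share was 92.4% ± 2.52 and 82.3% ± 2.94. The annotated exons of EIF4E add up to 14067 bases and those of EIF4EBP1 to 880, so the size of the ratio depends on these lengths. Without the length correction it was 6.79 ± 1.21 against 3.82 ± 0.25 in SK-N-BE2 and 7.74 ± 1.58 against 5.09 ± 0.458 in NGP. In proportion, these falls were smaller than those per kb in both lines. The ratio was not corrected for GC content, which was 61.7% for EIF4EBP1 and 39.8% for EIF4E. The highest control ratios came from SK-N-BE2 DMSO replicate 3 and NGP DMSO replicate 1. In these libraries the tenth of genes with the highest GC content lay 0.307 and 0.479 above the line mean (median, log2 scale). The other controls lay at -0.000112 and -0.0944 (SK-N-BE2 replicates 1 and 2) and at -0.0743 and 0.0742 (NGP replicates 2 and 3). STM2457 replicates 1 to 3 lay at 0.0873, -0.185 and -0.0748 in SK-N-BE2 and at -0.212, 0.0983 and -0.299 in NGP. Treated libraries of each line ranked by this measure as by their ratios, and controls did so only for the highest. The part of GC content in the ratio was not tested.

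**Figure D2:**
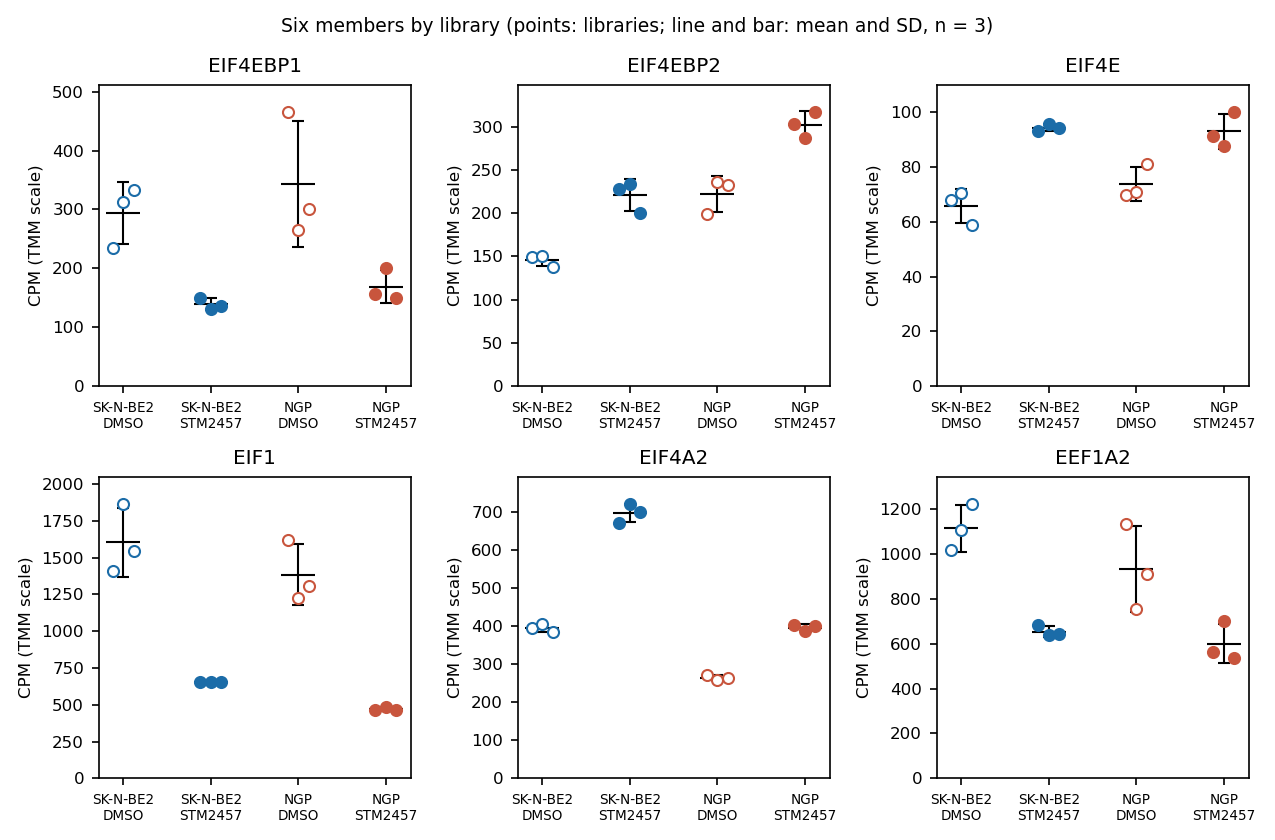
CPM (vertical axes, from 0) of EIF4EBP1, EIF4EBP2, EIF4E, EIF1, EIF4A2 and EEF1A2 in each of the 12 libraries, grouped by line and treatment, with the mean and SD of 3 replicates. Open points are DMSO and filled points STM2457. EIF4EBP1, EIF1 and EEF1A2 are lower in every STM2457 library than in any DMSO library of the line, and EIF4EBP2, EIF4E and EIF4A2 are higher.

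The helicase subunits of eIF4F differed in their response. EIF4A2 (chr3:186783205-186789897, plus strand) rose in both lines, from 395, 404 and 384 CPM to 672, 720.1 and 699 CPM in SK-N-BE2 and from 272, 258 and 263 CPM to 403, 386 and 399.8 CPM in NGP. Replicates lay close together and the groups far apart. Its log2 fold change was 0.78 ± 0.08 SE (adjusted p 4.93e-06) and 0.56 ± 0.08 SE (adjusted p 0.00117). In GENCODE 44, 17.9% of the EIF4A2 exon length is shared with other genes, snoRNA genes among them, whose reads cannot be separated from it, so its level is uncertain to that extent. EIF4A1 (chr17:7572706-7579006, plus strand), its paralogue, measured 54.3, 64.7 and 62.9 CPM in the SK-N-BE2 controls and 61.5, 63.6 and 65.0 CPM in the treated libraries, with overlapping groups (log2 fold change 0.03, adjusted p 0.816). In NGP it rose from 69.6, 47.3 and 46.8 CPM to 92.5, 86.7 and 86.8 CPM (0.68 ± 0.16 SE, adjusted p 0.00977). EIF4A1 shares 29.8% of its exon length with SENP3-EIF4A1 in the files' annotation and has 13 named pseudogenes in GENCODE 44, which can lower its count. In GENCODE 44 a noncoding gene on the same strand covers 41% of its exon length, and reads of that gene may be included. Its level and the share set against it below are therefore uncertain. EIF4A2 made up 85.0% ± 1.2 of EIF4A1 and EIF4A2 reads per kb with DMSO and 90.5% ± 0.231 with STM2457 in SK-N-BE2 (exact permutation p 0.1). In NGP the shares overlapped, at 80.9% ± 3.21 and 79.5% ± 0.464 (exact permutation p 0.4).

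The scaffold EIF4G1 (chr3:184314495-184335358, plus strand) passed the threshold in neither line. It measured 687, 679 and 699 CPM in the SK-N-BE2 controls and 848, 802 and 786 CPM in the treated libraries, where the groups did not overlap (log2 fold change 0.20 ± 0.08 SE, adjusted p 0.0569). It passed the threshold there under DESeq2 (adjusted p 0.0169) and without DMSO replicate 1 (0.0482) or 2 (0.0438). In NGP it measured 632, 635 and 641 CPM and then 632, 706 and 639 CPM, with overlap (0.03, adjusted p 0.838). EIF4G3, a related scaffold, rose in SK-N-BE2 from 190.5 ± 25.2 to 257 ± 2.93 CPM (0.39, adjusted p 0.00313), with no call in NGP (0.01). EIF4B and EIF4H, which assist the helicase, were each called in a single line. EIF4B, with 12.2% of its exon length under an antisense gene in GENCODE 44 and therefore uncertain in a count without strand, fell in NGP (log2 fold change -0.25, adjusted p 0.0442), and EIF4H fell in SK-N-BE2 (-0.24, adjusted p 0.0215). Both calls were lost in several leave-one-out fits, up to adjusted p values of 0.164 without NGP STM2457 replicate 1 and 0.0872 without SK-N-BE2 STM2457 replicate 3.

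Other cap-binding relatives moved in NGP. EIF4E2, a cap-binding protein that represses translation, rose from 70.8, 53.9 and 63.2 CPM to 88.6, 85.8 and 90.9 CPM in NGP (log2 fold change 0.47 ± 0.12 SE, adjusted p 0.0120). EIF4E3 fell from 17.0, 21.6 and 20.5 CPM to 14.2, 13.6 and 13.4 CPM there (-0.55 ± 0.13 SE, adjusted p 0.0104). In SK-N-BE2 neither was called (0.04 and 0.14), though EIF4E3 was called higher there without DMSO replicate 1 (0.221, adjusted p 0.0345). An antisense gene covers 18.2% of the EIF4E2 exon length in GENCODE 44, so the EIF4E2 values are uncertain. The NGP calls were lost without STM2457 replicate 1 (EIF4E2, adjusted p 0.0538) or 3 (EIF4E2, 0.0555, and EIF4E3, 0.0514). EIF4E1B, the remaining relative, had at most 2 reads in a group and was not tested.

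EIF4A3, a helicase of the exon junction complex that is named with the initiation factors, moved in opposite directions. It fell in SK-N-BE2 from 128, 146 and 141 CPM to 113, 104 and 109 CPM (log2 fold change -0.39 ± 0.08 SE, adjusted p 0.00142). In NGP it rose from 171, 126 and 154 CPM to 198, 216 and 195 CPM (0.41 ± 0.12 SE, adjusted p 0.0263). The groups did not overlap in either line. The NGP call was lost in 5 of 6 leave-one-out fits (adjusted p up to 0.0803, without STM2457 replicate 2) and held without DMSO replicate 1.

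Among the factors that act at the start codon, EIF1 had the largest fall of the tested initiation factors in each line. EIF1 (chr17:41688885-41692668, plus strand), which keeps the scanning ribosome from starting at the wrong codon, measured 1406, 1862 and 1543 CPM in the SK-N-BE2 controls and 656, 652 and 657 CPM in the treated libraries. In NGP the values were 1617, 1225 and 1306 CPM and then 465, 486 and 465 CPM. The treated libraries were nearly equal within each line and lay far below the controls. The fall in SK-N-BE2 was 2.51-fold, with a log2 fold change of -1.33 ± 0.11 SE (adjusted p 5.74e-07), and that in NGP was 2.98-fold, at -1.57 ± 0.12 SE (adjusted p 4.06e-05). Over all alternative fits its log2 fold change stayed between -1.42 and -1.20 in SK-N-BE2 and between -1.65 and -1.45 in NGP.

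EIF1B, a close relative of EIF1, fell as well, from 42.4, 48.7 and 41.8 CPM to 32.3, 30.7 and 31.0 CPM in SK-N-BE2 (log2 fold change -0.54, adjusted p 0.000270). In NGP it fell from 111, 91.9 and 103 CPM to 58.4, 54.7 and 53.5 CPM (-0.90, adjusted p 0.000334). EIF5, which triggers GTP hydrolysis by eIF2 at the start codon, fell from 273 ± 11.4 to 213 ± 8.46 CPM in SK-N-BE2 (-0.39, adjusted p 0.00102) and from 435 ± 42.6 to 308 ± 6.67 CPM in NGP (-0.52, adjusted p 0.00393). EIF1AX, which opens the decoding site of the small subunit together with EIF1, rose in SK-N-BE2 (0.27, adjusted p 0.00788), while NGP gave no call (-0.10, adjusted p 0.401). EIF6, which keeps the ribosomal subunits apart, fell in NGP from 125, 82.8 and 87.5 CPM to 50.5, 53.9 and 52.9 CPM (-0.94 ± 0.16 SE, adjusted p 0.00205). In SK-N-BE2 its values were 58.9, 69.5 and 61.4 CPM and then 52.4, 55.1 and 59.3 CPM, which overlapped (-0.22, adjusted p 0.0546). It was called lower there under 4 of 16 alternatives, among them without DMSO replicate 1 (-0.274, adjusted p 0.0225). EIF6 shares 17.4% of its exon length with another gene of the files' annotation.

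Of the 14 genes for eIF3 subunits, the complex that joins the small subunit to eIF4F, 1 rose, 9 fell and 4 were not called in SK-N-BE2, with a median log2 fold change of -0.44. These counts stand against 26.9% of all genes called higher and 27.8% lower. In NGP 6 fell, 8 were not called and 0 rose by edgeR (0 also at an unadjusted p under 0.05 and by DESeq2), with a median of -0.29, against 19.4% and 22.2% of all genes. The absence of rises in NGP rested on DMSO replicate 1. Without that library 3 subunits were called higher, EIF3K (0.443, adjusted p 0.000325), EIF3G (0.298, adjusted p 0.0145) and EIF3B (0.203, adjusted p 0.0191), and 7 were called lower, EIF3C among them (-0.37, adjusted p 0.0307), with a median of -0.21. EIF3D (chr22:36510855-36529184, minus strand), a subunit that can itself bind the cap, fell from 257, 277 and 243 CPM to 199.5, 190.1 and 185 CPM in SK-N-BE2 (-0.47 ± 0.08 SE, adjusted p 0.000335). Its fall in NGP, from 555, 460.4 and 462 CPM to 209, 222 and 214 CPM, was the largest among the subunits there (-1.22 ± 0.10 SE, adjusted p 6.64e-05). Treated and control libraries were apart in both lines.

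EIF3E fell from 549.8, 610.1 and 549.6 CPM to 354, 369.6 and 363 CPM in SK-N-BE2 (log2 fold change -0.69, adjusted p 1.91e-05) and from 573, 488 and 539.6 CPM to 393, 351 and 394 CPM in NGP (-0.52, adjusted p 0.00415). EIF3J and EIF3M fell by similar amounts in the lines, with log2 fold changes of -0.54 and -0.61 for EIF3J and of -0.58 and -0.63 for EIF3M. EIF3H fell less (-0.41 and -0.30), and its NGP call was lost in 4 of 6 leave-one-out fits (adjusted p up to 0.132, without STM2457 replicate 3). EIF3G, EIF3F and EIF3C were called in SK-N-BE2 and not in NGP. EIF3G fell there from 205, 221 and 234 CPM to 156, 143 and 152 CPM (-0.59, adjusted p 5.46e-05), while in NGP it measured 209.6, 119 and 138 CPM and then 158, 175 and 151 CPM (0.03). The first of these controls is the library that stood apart, and without it EIF3G was called higher in NGP. The difference between lines for EIF3G was -0.61 (adjusted p 0.0519), called under 9 of 21 alternatives, and -0.895 (adjusted p 2.86e-05) without that library. EIF3C fell from 19.9, 21.3 and 19.4 CPM to 10.9, 13.6 and 11.1 CPM (-0.81, adjusted p 5.49e-05). It has a near-identical copy, EIF3CL, so reads that fit both were not counted and both levels are uncertain. EIF3CL was called lower too (-1.04, adjusted p 0.0371), but not without SK-N-BE2 DMSO replicate 1, 2 or 3 or STM2457 replicate 1 or 2 (adjusted p up to 0.131). Summing the copies gave -0.82 in SK-N-BE2 and -0.34 in NGP.

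EIF3A (chr10:119033670-119080823, minus strand), the largest scaffold subunit, was the only subunit called higher in SK-N-BE2. It rose in SK-N-BE2 from 486, 387 and 399 CPM to 585, 599 and 574 CPM (log2 fold change 0.43 ± 0.10 SE, adjusted p 0.00212). In NGP it fell from 599.8, 712 and 727 CPM to 533, 576 and 546 CPM (-0.33 ± 0.11 SE, adjusted p 0.0352). No treated library lay within the controls of its line. The NGP call was lost in 5 of 6 leave-one-out fits (adjusted p up to 0.143, without STM2457 replicate 1) and held without DMSO replicate 1.

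The elongation factors EEF1A1 and EEF2 were the most abundant members. In SK-N-BE2 5 of 5 tested elongation factors fell, with a median log2 fold change of -0.41, where 27.8% of all genes were called lower, and in NGP 1 of 5 fell, with a median of -0.30, against 22.2%. The SK-N-BE2 count was 3 with the replicate block and 1 in a joint fit of all 12 libraries, which left EEF1A2 alone. By edgeR 0 rose in either line, also at an unadjusted p under 0.05 and by DESeq2. EEF1A2 (chr20:63488014-63499185, minus strand), the paralogue of neurons and muscle, measured 1016, 1105 and 1222 CPM in the SK-N-BE2 controls and 684, 637 and 642 CPM in the treated libraries (-0.81 ± 0.10 SE, adjusted p 1.27e-05). In NGP it measured 1135, 756 and 910.3 CPM and then 565, 702 and 536 CPM (-0.66 ± 0.16 SE, adjusted p 0.0121). The groups did not overlap, but the NGP call was lost without STM2457 replicate 1 (adjusted p 0.0567) or 3 (0.0563). EEF1A2 is the member with the highest GC content (65.5%). With the GC offsets its log2 fold change was -0.60 in SK-N-BE2 (adjusted p 0.000265) and -0.18 in NGP (adjusted p 0.124). Without NGP DMSO replicate 1 the NGP value was -0.50 (adjusted p 0.00502).

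EEF1A1 (chr6:73515750-73523797, minus strand), the general paralogue, measured 10947, 12872 and 9755 CPM in the SK-N-BE2 controls and 9494, 9436 and 8763 CPM in the treated libraries, a log2 fold change of -0.32 (± 0.12 SE, adjusted p 0.0419). In NGP its groups overlapped, at 8486, 6594 and 7525 CPM and then 7527, 6754 and 7483 CPM (-0.08, adjusted p 0.627). EEF2 (chr19:3976056-3985463, minus strand), the translocase, fell in SK-N-BE2 from 6859, 6484 and 7710.1 CPM to 6238, 5552 and 5607 CPM (-0.31 ± 0.11 SE, adjusted p 0.0260). In NGP the change was of like size but the groups overlapped, at 5745, 4249.9 and 5649 CPM and then 4105, 4832 and 3958 CPM (-0.30, adjusted p 0.119). Without NGP DMSO replicate 2 it was called (-0.43, adjusted p 0.0188). The SK-N-BE2 calls for these most abundant members were marginal. In the joint fit they were lost (adjusted p 0.0832 for EEF1A1 and 0.1 for EEF2), as with the replicate block (0.0657 and 0.0517), and that for EEF2 also with offsets for exon length (0.0529). The call for EEF1A1 was lost without DMSO replicate 2 (log2 fold change -0.20, adjusted p 0.0799) or STM2457 replicate 1 (0.0982), 2 (0.111) or 3 (0.143). That for EEF2 was lost without DMSO replicate 3 (0.0776) or STM2457 replicate 2 (0.131) or 3 (0.103). EEF1A1 has 49 named pseudogenes in GENCODE 44, and reads that map to more than one place were not counted.

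The exchange factors that recharge eEF1A with GTP fell in SK-N-BE2. EEF1B2 measured 464, 649.8 and 498 CPM with DMSO and 407, 412 and 427 CPM with STM2457 (log2 fold change -0.41, adjusted p 0.00925), and EEF1D 214, 246 and 267 CPM and then 179, 174 and 178 CPM (-0.49, adjusted p 0.000512). In NGP the changes were -0.33 (adjusted p 0.128) and -0.04 (0.896), with overlapping groups. EEF1B2 was called in NGP without DMSO replicate 2 (-0.475, adjusted p 0.0226) and with offsets for exon length (-0.28, adjusted p 0.0316). In GENCODE 44 EEF1B2 shares 16.4% of its exon length with other genes and EEF1D a larger part, all of it with genes on the other strand, so both are uncertain. The joint fit ended both SK-N-BE2 calls (adjusted p 0.0599 and 0.0600). EEF1G, the other subunit, had 0 reads in every library, and 99.7% of its exon length is covered by another gene in the files' annotation, so its level could not be read from these counts.

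EEF1A2 made up 10.4% ± 1.92 of EEF1A1 and EEF1A2 reads per kb with DMSO in SK-N-BE2 and 7.53% ± 0.300 with STM2457 (exact permutation p 0.1). In NGP its share was 12.4% ± 0.849 and 8.72% ± 1.68 (exact permutation p 0.1). The libraries gave 9.62%, 8.97% and 12.6% and then 7.64%, 7.19% and 7.75% in SK-N-BE2, and 13.3%, 11.6% and 12.2% and then 7.93%, 10.7% and 7.59% in NGP. Each treated library lay below each control of its line. The difference in SK-N-BE2 was -2.86 percentage points, and -1.77 without DMSO replicate 3. The share was not corrected for GC content, which was 65.5% for EEF1A2 and 48.2% for EEF1A1. With the GC offsets the NGP change of EEF1A2 itself was -0.18 on the log2 scale (adjusted p 0.124). Reads of EEF1A1 that also fit its pseudogenes were not counted, so the share may be overstated. All members together took 3.09% ± 0.147 of counts with DMSO and 2.64% ± 0.0943 with STM2457 in SK-N-BE2, and the NGP shares were 2.71% ± 0.193 and 2.26% ± 0.0149 (exact permutation p 0.1 each). The elongation factors held most of this, going from 1.98% ± 0.0999 to 1.62% ± 0.0740 (SK-N-BE2) and from 1.48% ± 0.162 to 1.27% ± 0.0143 (NGP). Initiation factors went from 1.04% ± 0.0451 to 0.939% ± 0.0189 and from 1.14% ± 0.0300 to 0.918% ± 0.00794. Treated libraries lay below controls in each of these shares. In NGP the share of counts in mitochondrially encoded genes rose at the same time, from 3.15% ± 0.440 to 6.81% ± 0.350. Without those genes in the total, the members' share was 3.42% ± 0.115 and 2.89% ± 0.0731 for SK-N-BE2 and 2.80% ± 0.206 and 2.43% ± 0.0118 for NGP.

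**Figure D3:**
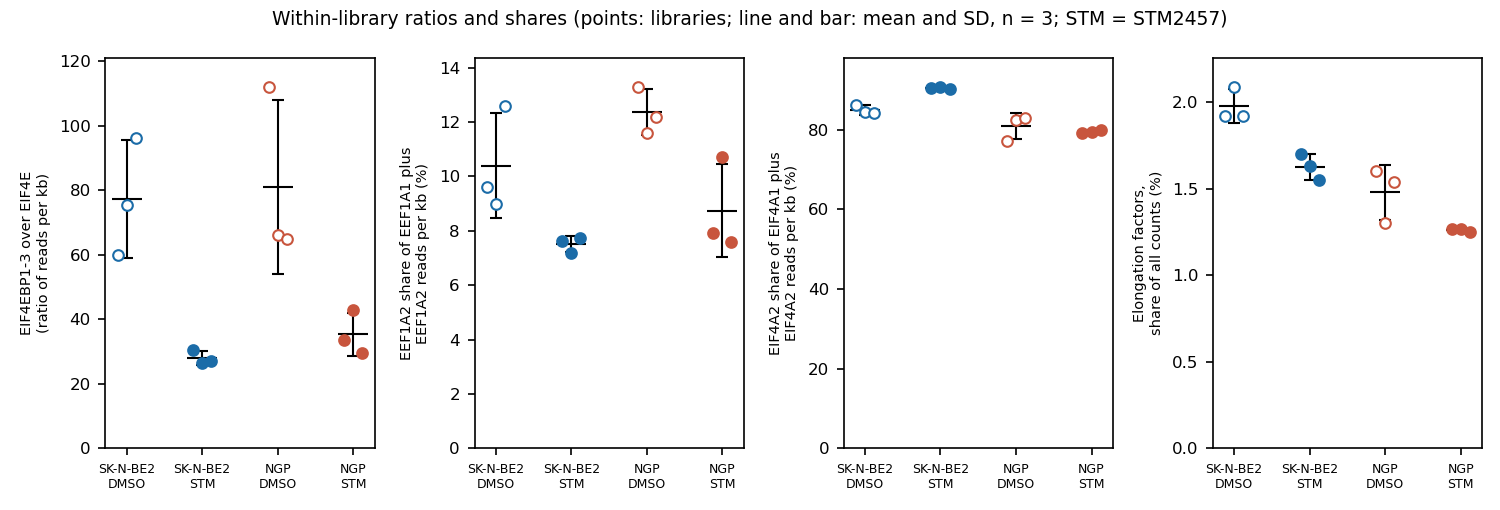
Ratios and shares within each of the 12 libraries (vertical axes, from 0), with open points for DMSO, filled points for STM2457 (STM), and the mean and SD of 3 replicates. From left to right the panels show the ratio of EIF4E-binding protein to EIF4E reads per kb, the EEF1A2 share of EEF1A1 plus EEF1A2, the EIF4A2 share of EIF4A1 plus EIF4A2, and the share of all counts in elongation factors. The EIF4E-binding protein ratio has means of 77.3 (DMSO) and 28.1 (STM2457) for SK-N-BE2 and of 81.1 and 35.4 for NGP, and only the EIF4A2 share overlaps between treated and control libraries, in NGP.

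Per kb of exon, the order of levels was led by the same pair in all groups. In SK-N-BE2 with DMSO, EEF1A1 (2044 ± 287 CPM per kb) and EEF2 (1745 ± 156) overlapped, followed by EIF1 (443 ± 64.7). EIF4EBP1 (333 ± 59.7), EEF1B2 (281 ± 51.7) and EEF1A2 (234 ± 21.7) came next, each overlapping with its neighbour. In NGP with DMSO the order after EEF1A1 (1377 ± 173) and EEF2 (1297 ± 208) was EIF4EBP1 (391 ± 122), EIF1 (382 ± 57.1), EEF1B2 (295 ± 71) and EEF1A2 (196 ± 39.8), again with overlap between these neighbours. With STM2457, EEF1B2 had rank 3 in both lines (217 ± 5.33 and 238 ± 8.19 CPM per kb). EIF1 then had rank 4 in SK-N-BE2 (181 ± 0.716) and rank 8 in NGP (130.4 ± 3.38).

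Among the associated proteins, 2 of 5 tested rose and 0 fell in SK-N-BE2 by edgeR (0 also at an unadjusted p under 0.05 and by DESeq2), and 2 rose and 2 fell in NGP. EEF1AKNMT (chr1:171781660-171814023, plus strand), also called METTL13, methylates eEF1A. It rose from 81.9, 88.7 and 75.0 CPM to 159, 146 and 147 CPM in SK-N-BE2 (0.84 ± 0.09 SE on the log2 scale, adjusted p 3.45e-06), the largest rise among the members there. In NGP it rose from 91.4, 77.5 and 79.5 CPM to 119, 116 and 122 CPM (0.50 ± 0.10 SE, adjusted p 0.00441). EEF2K, the kinase that inactivates eEF2, rose by smaller amounts, from 70.3 ± 3.29 to 85.6 ± 4.47 CPM in SK-N-BE2 (0.25, adjusted p 0.0180) and from 59.2 ± 3.30 to 76.6 ± 2.81 CPM in NGP (0.34, adjusted p 0.0198). Its calls were lost without STM2457 replicate 1 or 2 in SK-N-BE2 (adjusted p up to 0.0835) and without any STM2457 replicate in NGP (up to 0.0741). EIF4ENIF1, which carries eIF4E into the nucleus and to P-bodies, fell in NGP from 77.0, 79.7 and 73.3 CPM to 56.5, 58.9 and 59.9 CPM (-0.42, adjusted p 0.00750). This call was lost without NGP STM2457 replicate 1 (adjusted p 0.0527). EEF1E1, a scaffold of the aminoacyl-tRNA synthetase complex, fell in NGP (-0.61, adjusted p 0.0211), a call that each removal of an STM2457 replicate ended (adjusted p up to 0.0769). Its change was -0.406 (adjusted p 0.00857) without NGP DMSO replicate 1, and 18.8% of its exon length is shared with its read-through gene, so it is uncertain. EEF1E1-BLOC1S5, a read-through gene whose exons all belong to other genes as well, had 0 reads in every library.

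Besides EIF1AY, 11 members were not called in either line, namely EIF3B, EIF3I, EIF3K, EIF3L, EIF4G1, EIF4G2, EIF5A, EIF5A2, EIF5AL1, EIF5B and EIF1AD. Their log2 fold changes lay between -0.21 and 0.20 in SK-N-BE2 and between -0.33 and 0.17 in NGP. Some alternatives called 7 of them. In NGP these were EIF3K, EIF3B and EIF5B (0.204, adjusted p 0.0379) without DMSO replicate 1 and EIF3L (-0.357, adjusted p 0.0366) without DMSO replicate 2. In SK-N-BE2 they were EIF3B (higher), EIF3I and EIF1AD (lower), under 3 of 16 alternatives each, and EIF4G1 (higher) under 5. EIF4G2, a scaffold used in cap-independent initiation, was the most abundant of them, at 1066 ± 77.9 and 1046 ± 50.1 CPM in SK-N-BE2 and 1013 ± 27.5 and 1012 ± 32.6 CPM in NGP. EIF5A, the factor that carries hypusine and helps ribosomes through difficult stretches, measured 346 ± 51.7 and 353 ± 19.7 CPM in SK-N-BE2 and 472 ± 93.7 and 434 ± 64.6 CPM in NGP. EIF5AL1 is a near-identical copy of EIF5A, so the reads of both are uncertain.

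Of the 8 members with a TOP-like run at the annotated start printed above, 1 rose and 5 fell in SK-N-BE2, with a median log2 fold change of -0.31, and 1 rose and 3 fell in NGP, with a median of -0.18. The 1 that rose in each line was EIF4A2, and EIF3D and EIF3M fell in both. The NGP counts were 2 and 3 without DMSO replicate 1. Of the other matched members 6 rose and 9 fell among 31 tested in SK-N-BE2 (median -0.01), and 7 rose and 8 fell among 30 in NGP (median -0.05). The contrast was smaller with starts allowed within 5 bases on either side. With such a run, 3 rose and 8 fell of 17 in SK-N-BE2 (median -0.18), and 4 and 5 of 17 in NGP (-0.08). Without it, 4 rose and 6 fell of 22 in SK-N-BE2 (median -0.01), and 4 and 6 of 21 in NGP (-0.09). Members with an E-box numbered 2 higher and 5 lower of 11 tested in SK-N-BE2, and 3 higher and 2 lower of 10 in NGP. The shares over all genes tested were 26.9% higher and 27.8% lower for SK-N-BE2, and 19.4% and 22.2% for NGP. Members with no start site found enter none of these groups. Among them EIF3CL, EIF3E, EIF3G, EIF3H, EEF1A2, EEF1D and EIF4EBP1 were called lower in SK-N-BE2, and EIF3A higher. In NGP EIF3A, EIF3E, EIF3H, EEF1A2 and EIF4EBP1 were called lower. The groups by sequence were compared by description only.

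Genes that act with the members were followed as 4 lists, and their counts are read beside the share of all genes called, 54.7% (SK-N-BE2) and 41.7% (NGP). The NGP share was 57.3% without DMSO replicate 1, and the lists, in the order given here, had 2, 2, 5 and 4 genes higher and 3, 10, 9 and 7 lower. Of 10 genes for eIF2, which brings the initiator tRNA, and for its exchange factor eIF2B, 2 rose and 2 fell in SK-N-BE2 and 1 rose and 3 fell in NGP, which is 4 of 10 in each line, no more than the share for all genes. EIF2S2, the beta subunit of eIF2, fell from 271 ± 35.5 to 135 ± 3.85 CPM in SK-N-BE2 (log2 fold change -1.04, adjusted p 1.69e-06) and from 310.2 ± 41.5 to 146 ± 0.701 CPM in NGP (-1.11, adjusted p 0.000149). EIF2S3, the gamma subunit, fell in both (-0.59 and -0.34), and EIF2S1, the alpha subunit, fell in NGP (-0.51) and gave 0.06 in SK-N-BE2, with no call. EIF2B5, the catalytic subunit of eIF2B, rose in both lines (0.71 and 0.33). Over the list the median log2 fold change was 0.01 in SK-N-BE2 and -0.14 in NGP.

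In the list of poly(A)-binding, start-site, release and recycling factors, 7 of 17 tested fell in SK-N-BE2 and 0 rose by edgeR (2 rose at an unadjusted p under 0.05 and 1 by DESeq2), and 6 of 16 fell and 1 rose in NGP. PABPC1, the poly(A)-binding protein that contacts eIF4G, fell from 1541 ± 61.9 to 1103 ± 77.8 CPM (-0.52) and from 1777 ± 25.4 to 1282 ± 38.4 CPM (-0.50). TPT1 fell in both lines (-0.59 and -0.44). PDCD4, an inhibitor of eIF4A, fell in SK-N-BE2 (-0.66) and was not called in NGP (0.07), as was PELO, a factor that rescues stalled ribosomes (-0.63 and 0.09). HBS1L, the partner of PELO, and the release factor ETF1 fell in NGP (-0.54 and -0.48) and were not called in SK-N-BE2 (-0.04 and -0.18).

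Among 16 genes that link mTOR and the MNK kinases to eIF4E, 4 rose and 7 fell in SK-N-BE2 (68.8% called, against 54.7% of all genes) and 4 rose and 6 fell in NGP (62.5%, against 41.7%). The largest falls were in DDIT4 and SESN2, which restrain mTOR under stress. DDIT4 went from 1129.9 ± 109 to 54.8 ± 1.89 CPM in SK-N-BE2 (-4.40 on the log2 scale) and from 523 ± 51.1 to 76.1 ± 7.91 CPM in NGP (-2.81). For SESN2 the log2 fold changes were -3.44 and -3.52. MKNK2, which phosphorylates eIF4E, fell more in SK-N-BE2 (-1.15) than in NGP (-0.34), a difference that was called (-0.79, adjusted p 0.00110). RPS6KA1, a kinase of the RSK family, rose in NGP (0.77), with no call in SK-N-BE2 (-0.21).

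Of 15 genes for enzymes that modify EIF5A, EEF1A and EEF2, a list that holds EEF1AKNMT as well, 4 rose and 5 fell in SK-N-BE2 and 2 rose and 6 fell in NGP. DPH5, which acts in the making of diphthamide on eEF2, fell in both lines (log2 fold change -0.91 and -0.71). DPH6, which completes diphthamide, fell in SK-N-BE2 (-0.85) and rose in NGP (0.47). DPH2, of the first step, rose in SK-N-BE2 (0.28) and fell in NGP (-0.59). DOHH, which finishes hypusine on EIF5A, fell in NGP from 38.8 ± 11.8 to 16.1 ± 5.66 CPM (-1.30, adjusted p 0.00596), with no call in SK-N-BE2 (-0.46).

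The response of each member was then compared between the lines in a fit of all 12 libraries. The difference, SK-N-BE2 minus NGP, was called for 12 of 48 members tested, 9 higher and 3 lower, against 30.9% of the 14731 genes tested (17% higher and 13.9% lower). With DESeq2 size factors the split was 7 higher and 4 lower, and with upper-quartile factors 7 and 5. The split was even without NGP DMSO replicate 1, at 8 higher and 8 lower, against 21.6% and 20.4% of all genes. The 6 calls gained there were EEF1D, EIF3F, EIF3G, EIF3I and EIF3K (lower) and EIF4G3 (higher), and those for EIF1B and EEF1AKNMT were lost (adjusted p 0.0606 and 0.0697). The 5 largest differences were EIF4A3 (-0.79 ± 0.15 SE, adjusted p 0.00131), EIF3A (0.77 ± 0.14 SE, adjusted p 0.00123), EIF3D (0.76 ± 0.13 SE, adjusted p 0.000520), EIF6 (0.72 ± 0.19 SE, adjusted p 0.0102) and EIF4E3 (0.70 ± 0.15 SE, adjusted p 0.00288). EIF3D fell more in NGP, and EIF3A and EIF4A3 changed in opposite directions. In the main fits EIF6 and EIF4E3 were called lower in NGP and not in SK-N-BE2. Some alternatives called EIF6 lower in SK-N-BE2 as well, and 1 called EIF4E3 higher there. The elongation factors and the EIF4E-binding proteins gave 0 of 5 and 0 of 3 calls by edgeR, and also 0 at an unadjusted p under 0.05 and by DESeq2. Of the elongation factors, EEF1D was called without NGP DMSO replicate 1 (-0.76, adjusted p 0.00146) and with the GC offsets (-0.591, adjusted p 0.0114). For EIF4EBP1 the difference was -0.05 ± 0.27 SE (adjusted p 0.913) and for EIF1 0.26 ± 0.17 SE (adjusted p 0.263), which does not show equal responses.

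**Figure D4:**
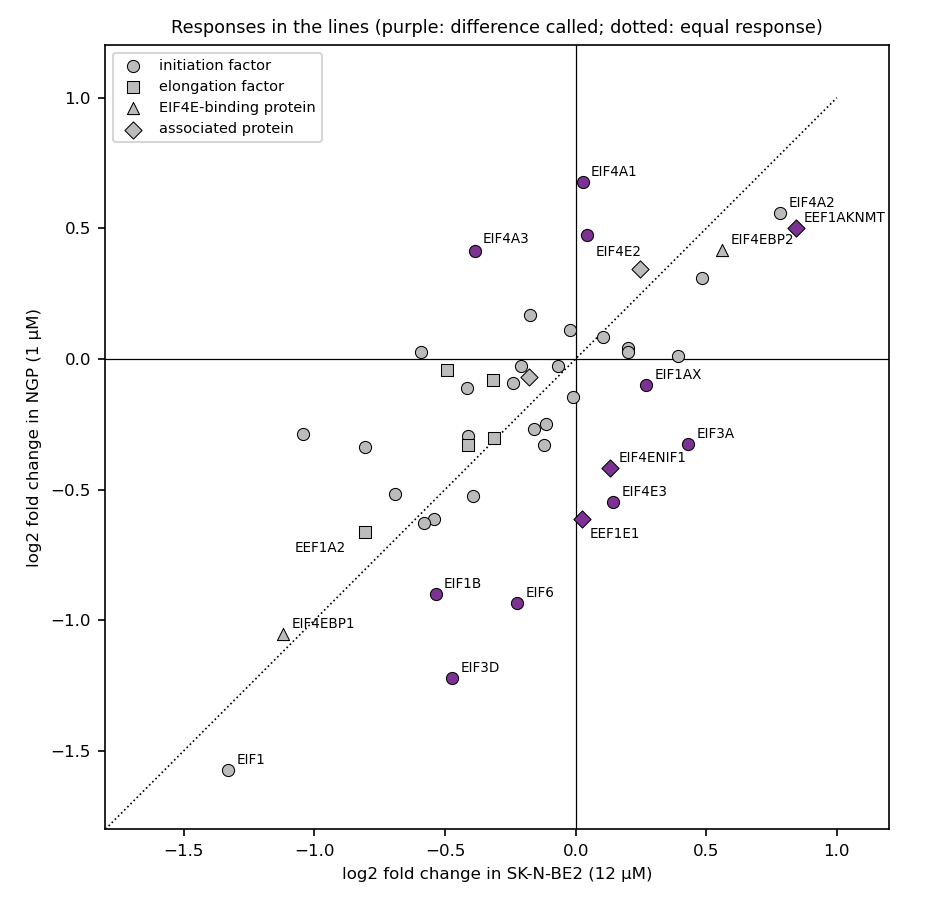
Log2 fold change of each member in SK-N-BE2 (horizontal axis) against NGP (vertical axis), with shapes for the kind of factor and purple for members whose response differed between the lines by edgeR. Points on the dotted line have equal responses. EIF1 and EIF4EBP1 lie low on both axes near the line, whereas EIF3A (0.43 and -0.33) and EIF4A3 (-0.39 and 0.41) lie in opposite corners. EIF1AY and EIF4EBP3 are left out.

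The genes with the pattern most like that of EIF4EBP1 were sought over the 12 libraries, by the correlation of log2 CPM after the mean of each line was subtracted, among 10442 genes. They were MYDGF (Pearson r 0.992), AGPAT2 (0.990), EEF1A2 (0.990), SURF2 (0.988) and RPL8 (0.988). All points share the treatment groups and libraries, and the 5 genes have GC contents of 57.1% to 66.4%, above the median of 48.4%, so the values describe these libraries and carry no test. EEF1A2 is itself an elongation factor and was lower with STM2457 in the same libraries as EIF4EBP1, including the high value of both in NGP DMSO replicate 1.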

How the data were processed

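The authors' counting, per the file headers, assigned reads to exons with featureCounts 2.0.5 and summed them under gene names, for the protein-coding part of GENCODE 33 on GRCh38. What was deposited is therefore the raw count of each of 19923 genes, without normalization, in 12 libraries. No strand option, multi-mapping reads or counting of read pairs was requested, per the file headers, so overlapping genes and near-identical copies lose or share reads. The submitters' processing notes also list FastQC 0.11.5, Trimmomatic 0.36, HISAT2 2.1.0 and Subread 1.5.3, a version of the counting package that differs from the header. Sample titles gave line, treatment and replicate.

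The 6 libraries of a line were fitted without those of the other, in edgeR 4.0.16 (R 4.3.3). Genes passed filterByExpr with a minimum count of 10, libraries were scaled by TMM, and p-values of the quasi-likelihood test were adjusted by Benjamini-Hochberg over all genes tested, with a threshold of 0.05. The difference between lines was a contrast of 4 group means over 12 libraries. CPM values are on the TMM scale, and all changes are relative, without a spike-in. Ratios and shares were compared with two-sided exact permutation tests. Genes with over 10% of exon length shared with another gene are treated as uncertain, which in GENCODE 44 holds for 13 members. For EIF4A2, EIF4B, EIF4E2, EEF1B2 and EEF1D the partners are chiefly noncoding or antisense genes outside the annotation that was counted, so their reads may be included. EIF4A1 and EIF3L also share 41% each with a noncoding gene of this kind. Besides those described, EIF5B (10.8%) and EIF3L (10.7%) share exons in the files' annotation. Depth was 47242379 to 58159937 reads, so counting error is small for all but the rarest members, and 3 replicates limit precision.

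Always named were the EIF4E-binding proteins, EIF4E, EIF4G1, EIF4A1, EIF4A2, EEF1A1, EEF1A2, EEF2 and METTL3. For each line, the 6 largest changes in each direction among called members with at least 10 CPM were added, and for the difference between lines the 5 largest. Up to 3 called genes per line came from each partner list, and other members were named where called. Members, lists and tests were chosen with earlier results of these data known.

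Alternatives were DESeq2 size factors, upper-quartile factors, other filters, DESeq2 1.42.0, a replicate block, halved counts, offsets for exon length, a joint fit, leaving out each library and, chosen after seeing the data, offsets for GC content. On simulated counts, a log2 change of 1 was recovered for 84.5% of changed genes (SK-N-BE2, 13898 genes run), 82.7% (NGP, 13489) and 64.3% (difference between lines, 14611). For a log2 change of 0.5 the shares were 65%, 20.2% and 11%. False calls were 4.55%, 1.94% and 6.33% of calls. Each simulation changed 200 genes, far fewer than were called in the data. These rates therefore describe that setting and not the recovery in the fits themselves. Replicates of a group differed by more than sampling noise, so all were kept.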

Additional observations from a re-analysis of the deposited data

Results flagged for a closer look

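For 12 members the response to STM2457 differed between SK-N-BE2 and NGP in a test of the difference itself (edgeR adjusted p under 0.05), in a comparison where 30.9% of all genes tested were called. Line, dose and sequencing run cannot be told apart, so the differences belong to the 3 together.

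Among the start-site factors, the SK-N-BE2 response minus the NGP response was 0.38 for EIF1AX (adjusted p 0.0142) and 0.38 for EIF1B (0.0446). For the eIF3 subunits EIF3A and EIF3D it was 0.77 (adjusted p 0.00123) and 0.76 (0.000520), and for EIF6 it was 0.72 (0.0102). Of the cap-binding and helicase members, EIF4A1 differed by -0.64 (adjusted p 0.0194), EIF4A3 by -0.79 (0.00131), EIF4E2 by -0.42 (0.0470) and EIF4E3 by 0.70 (0.00288). The associated proteins EEF1AKNMT, EEF1E1 and EIF4ENIF1 differed by 0.35 (adjusted p 0.0490), 0.65 (0.0287) and 0.56 (0.00304).

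The differences for EIF1B, EIF4E2, EEF1AKNMT and EEF1E1 were lost in 10, 10, 10 and 7 of 12 leave-one-out fits, with adjusted p values up to 0.134, 0.107, 0.154 and 0.0732 over all alternatives. That for EIF4A1 was lost without NGP DMSO replicate 3 (adjusted p 0.0529). The other 7 were called under each alternative run.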

How the results depend on the processing

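Of the members called, 22 of 29 in SK-N-BE2, 12 of 24 in NGP and 7 of 12 for the difference between lines were called under every alternative run, and 0 called members changed direction. Counts of called members ranged from 24 to 33 (SK-N-BE2), 13 to 31 (NGP) and 8 to 16 (difference) in leave-one-out fits. NGP was most sensitive, with 13 without STM2457 replicate 1 or 3. Calls among all genes tested varied too over all alternatives. They ranged from 6497 to 8142 (SK-N-BE2), 3816 to 7897 (NGP) and 3701 to 6274 (difference). With the replicate block the counts of members were 27, 19 and 9. Whether replicate numbers pair the samples is not known. Deviations of same-numbered libraries correlated at -0.0577 to 0.0876 (SK-N-BE2) and -0.0737 to 0.0222 (NGP). These values show no strong effect shared by replicate number, and cannot show that the samples were not paired. With GC offsets the counts of members were 33, 23 and 13. Values that changed sign were of members not called. EIF1AY aside, these were 6 in SK-N-BE2, 10 in NGP and 11 for the difference between lines, and some are given here. The EEF2 difference between lines, 0.00339 in the main fit, changed sign under 15 of 21 alternatives. EIF4A1 in SK-N-BE2 was -0.0239 with upper-quartile factors and -0.0489 (without DMSO replicate 1) to 0.0811 in leave-one-out fits. EEF1A1 in NGP was -0.166 to 0.0114 in them, above 0 without DMSO replicate 1. The EIF4EBP1 difference between lines was 0.136 with offsets for exon length and -0.351 (without NGP DMSO replicate 1) to 0.103 (without NGP DMSO replicate 2) in leave-one-out fits. Without the length correction, the fall in the ratio of EIF4E-binding protein to EIF4E reads was -2.97 in SK-N-BE2 and -2.65 in NGP, on another scale than per kb. It was also smaller in proportion than the fall per kb in both lines. The causes were not tested. Depth limits EIF4EBP3 in NGP, EIF3CL and EIF4E1B.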
